A study of Arabidopsis thaliana with 6 samples.

Results

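HSP70 chaperones, the J-domain proteins that hand substrates to them, a heat-induced immunophilin and the heat shock transcription factors were followed in pollen tubes that lack the arabinogalactan proteins AGP6 and AGP11. The set was chosen by locus and holds 9 genes out of 14186 that could be named on the array: the cytosolic chaperones HSP70-2 (AT5G02490) and HSC70-1 (AT5G02500), the J proteins ATJ2 (AT5G22060), ATJ1 (AT1G28210), J20 (AT4G13830) and AT1G72070, the immunophilin ROF2 (AT5G48570), and the heat shock factors HSFA1A (AT4G17750) and HSFA4C (AT5G45710). Each locus had 1 named probe set. The agp6 agp11 plants are a homozygous double null line tagged with Ds transposons, obtained from a cross of 2 insertion lines, and the wild type plants are of the ecotype Nossen, which the labels give for both genotypes. Pollen tubes of both genotypes were grown in vitro in darkness and collected 8 h after germination was started. Each genotype gave 3 independent preparations from pooled flowers, and the RNA of each went onto its own Affymetrix ATH1 array. The signal of a probe set is a normalized intensity on a linear scale.

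HSP70 proteins bind unfolded stretches of other proteins and release them in a cycle driven by ATP. J proteins deliver the substrates and stimulate ATP hydrolysis, exchange factors reset the cycle, and immunophilins of the FKBP class work with HSP90. Heat shock factors bind the promoters of many of these genes, and class A factors activate them. Pollen is known for a heat shock response that is weaker than that of leaves.

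Of 22746 probe sets, 837 passed the genotype test in limma, which fits a linear model to the log2 signals of all probe sets (adjusted p under 0.05, Benjamini-Hochberg over all probe sets). The disrupted genes had signals of 25.1 ± 8.69 (AGP6) and 35.9 ± 4.07 (AGP11) in agp6 agp11 pollen tubes, against 12196 ± 2258 and 8356 ± 2399.9 in wild type (SD, n = 3 each). A signal of 40 is used here as the minimum for detection, and 6280 to 6795 probe sets of an array lay above it. Of 8 listed sperm cell genes 5 were named, and their summed signal was 16027 to 22161 on the agp6 agp11 arrays and 8833 to 11505 on the wild type arrays. Of these 5, 2 rose and none fell (5 rose with the replicate block explained below). All 5 stand in the study's supplementary gene table, whose rows used here had been picked by their genotype difference on these same arrays. Of the 1995 probe sets in those rows 41.4% passed, and 76.3% with the block. DAZ3 alone gave 11155 to 14563 of the sum in agp6 agp11 and 5641 to 7953 in wild type. The 4 named genes of 6 listed for the vegetative cell summed to 8035 to 8624 in agp6 agp11 and 5301 to 7576 in wild type, and none of them passed. However, 3 of these 4 are outside that gene table, and of all probe sets named by the array's platform table alone 0.0487% passed. Both named tapetum genes of 7 listed stayed at or below 23.98 on every array, and none of 11 listed photosynthesis genes was named. Whether the sperm cell genes have a part in the values below was not tested. Fewer cells of a type and less RNA per cell cannot be told apart in such preparations.

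In agp6 agp11 pollen tubes 3 of the 9 genes fell (ROF2, HSFA4C and J20), 2 rose (ATJ1 and AT1G72070) and 4 did not pass the test. Over all probe sets 3.68% passed, 1.67% as lower and 2.01% as higher. However, 8 of the 9 genes, all except HSP70-2, stand in the study's supplementary gene table, whose rows used here had been picked by their genotype difference on these same arrays. Of the 1995 probe sets in those rows 41.4% passed, and 5 of the 8 genes did, so the count of the 9 genes is not independent evidence that this group of genes changed. The labels give replicate numbers but do not say what arrays of the same number share. They were taken as pairs because their signals deviated together on these same arrays, so adjusted p-values with such pairs in the model may be too small. When replicate number entered the model as a block (the replicate block), all 9 passed, 6 as lower and 3 as higher, against 8.34% of all probe sets (3.31% lower and 5.03% higher) and 76.3% of those in the table. The study's criterion asks for a lower bound of the fold change over 1.3, from probe-level errors that were not available here. A stand-in bound from the spread between arrays exceeded 1.3 for 7 of the 9 genes, against 6.46% of all probe sets. Its share among the probe sets in the gene table was not counted. The signals of agp6 agp11 lay wholly below those of wild type for 5 of the 9 genes (8.71% of all probe sets) and wholly above them for 3 (11.3%). HSP70-2, which is outside the gene table, was the gene whose genotypes overlapped. Among the probe sets in the gene table these shares were not counted either. When 1 array was left out, 4 of the 9 genes passed without agp6 agp11 replicate 2 or 3, 3 without agp6 agp11 replicate 1 or wild type replicate 2 or 3, and 2 without wild type replicate 1. Over all 22746 probe sets 372 to 871 passed in these runs, against 837 with all arrays. The fewest, 372, also passed without wild type replicate 1, so the loss of calls was not particular to the 9 genes. The median log2 difference was -0.95 over the 9 genes and 0.03 over all probe sets. It was not computed for the probe sets in the gene table, so it is no separate evidence either.

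**Figure D1:**
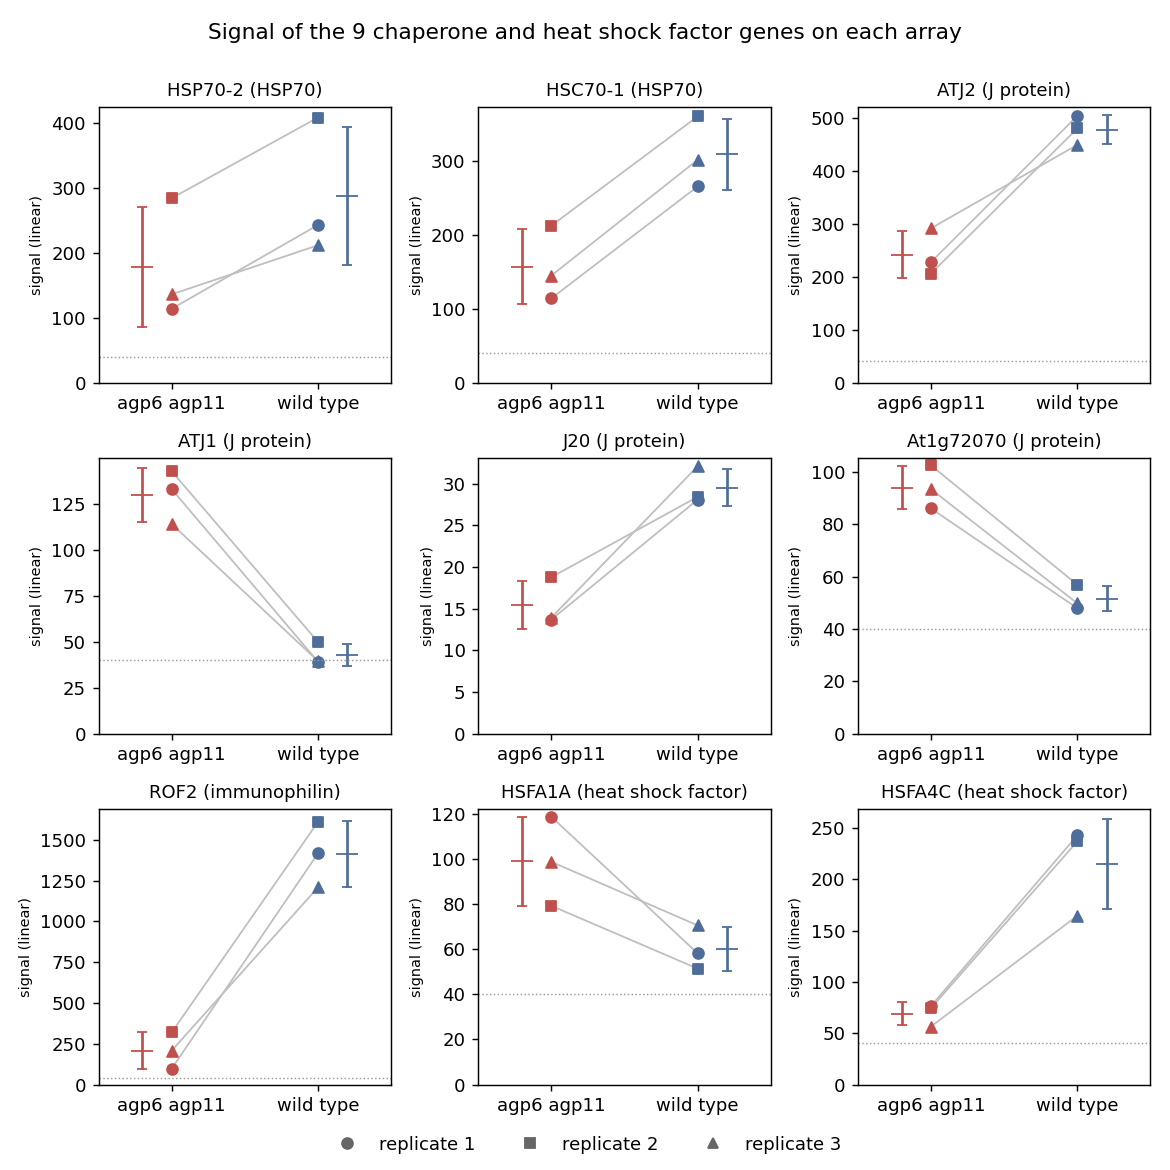
Signal on a linear scale (vertical axis, from 0) of the 9 genes on each of the 6 arrays, with agp6 agp11 on the left and wild type on the right of each panel. Lines join arrays of the same replicate number, bars give mean and SD (n = 3), and the dotted line is a signal of 40; HSP70-2 is the gene whose genotypes overlap.

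The cytosolic HSP70 genes had lower mean signals in agp6 agp11, but neither passed the limma test as fitted without the block. HSC70-1, the constitutive cytosolic HSP70, had signals of 114, 212 and 145 on the agp6 agp11 arrays of replicates 1, 2 and 3, against 266, 360.4 and 302 on the wild type arrays. All agp6 agp11 values lay below all wild type values. The difference was 2.02-fold, or -1.01 on the log2 scale with a standard error of 0.29 (limma adjusted p = 0.107, 0.00492 with the replicate block, and 0.0382 with array weights and no block). HSP70-2, whose locus lies next to that of HSC70-1 in the RefSeq annotation, had signals of 113.5, 284 and 136 in agp6 agp11 and of 243, 408 and 211 in wild type. The agp6 agp11 array of replicate 2 was brighter than the wild type arrays of replicates 1 and 3, so the genotypes overlapped. Its log2 difference was -0.75 with a standard error of 0.39 (limma adjusted p = 0.447, and 0.0279 with the replicate block).

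Replicate 2 was the brightest array for both of these genes in both genotypes. Within each replicate number the log2 ratio of agp6 agp11 to wild type was -1.10, -0.52 and -0.64 for HSP70-2 and -1.22, -0.76 and -1.06 for HSC70-1. The 3 ratios of each gene thus had one sign. How often this occurs over all probe sets was not counted, and the pairing was itself taken from these arrays. HSP70-2 is not a row of the table picked by genotype difference. Transcripts of cytosolic HSP70 genes are close in sequence, and the probe letters were not used here, so signal shared between these genes cannot be told apart. HSP70-3 (AT3G09440), another cytosolic HSP70, had signals of 62.4, 146 and 106 in agp6 agp11 and of 134, 183 and 105 in wild type, and the genotypes overlapped (limma adjusted p = 0.625, and 0.276 with the replicate block). No other gene of the 7 listed for cytosolic HSP70s was named, and none of the 7 for HSP70s of organelles.

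The J proteins did not move in one direction. ATJ1, a J protein of mitochondria, had the largest rise of the 9 genes, with signals of 133, 143 and 114 in agp6 agp11, against 39.0, 49.8 and 39.4 in wild type. Every agp6 agp11 array was more than 2-fold above every wild type array. Since 2 of the wild type arrays lay just below 40 and are raised to 40 in the ratio, the rise is given as at least 3.00-fold. The measured log2 difference was 1.61 with a standard error of 0.21 (limma adjusted p = 0.00279). AT1G72070, annotated with a J domain and with no compartment assigned here, had signals of 86.1, 103 and 93.5 in agp6 agp11 and of 47.9, 56.9 and 49.8 in wild type. It rose 1.83-fold without overlap (limma adjusted p = 0.0432), but the call was lost when any 1 of the 6 arrays was left out (adjusted p = 0.0765 to 0.246).

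ATJ2, a J protein of the cytosol, had signals of 227, 206 and 291 in agp6 agp11 and of 503.5, 479.7 and 449 in wild type. The groups were well apart, and the 2.00-fold difference lay close to the threshold (standard error of the log2 difference 0.25, limma adjusted p = 0.0625). It passed with the replicate block (adjusted p = 0.00716) and also, without the block, after quantile normalization (0.0329), with a minimum mean log2 signal of 5 (0.0389), without the trend in eBayes (0.0218) and with array weights (0.00441). J20, a J protein of chloroplasts known for the turnover of an enzyme of isoprenoid synthesis, had signals of 13.7, 18.8 and 13.9 in agp6 agp11 and of 28.1, 28.4 and 32.1 in wild type. It passed as lower (limma adjusted p = 0.0172), but all 6 signals lay below 40 and no fold is given. By compartment, then, the mitochondrial J protein rose and the J protein of chloroplasts fell near background. The 3 cytosolic genes (HSC70-1, HSP70-2 and ATJ2) had lower mean signals whose calls depended on the fit. The 3 genes of cytosol and nucleus (ROF2, HSFA4C and HSFA1A, described below) did not move in one direction. Mitochondrion and chloroplast hold 1 gene each, so no trait of a compartment can be read from them.

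**Figure D2:**
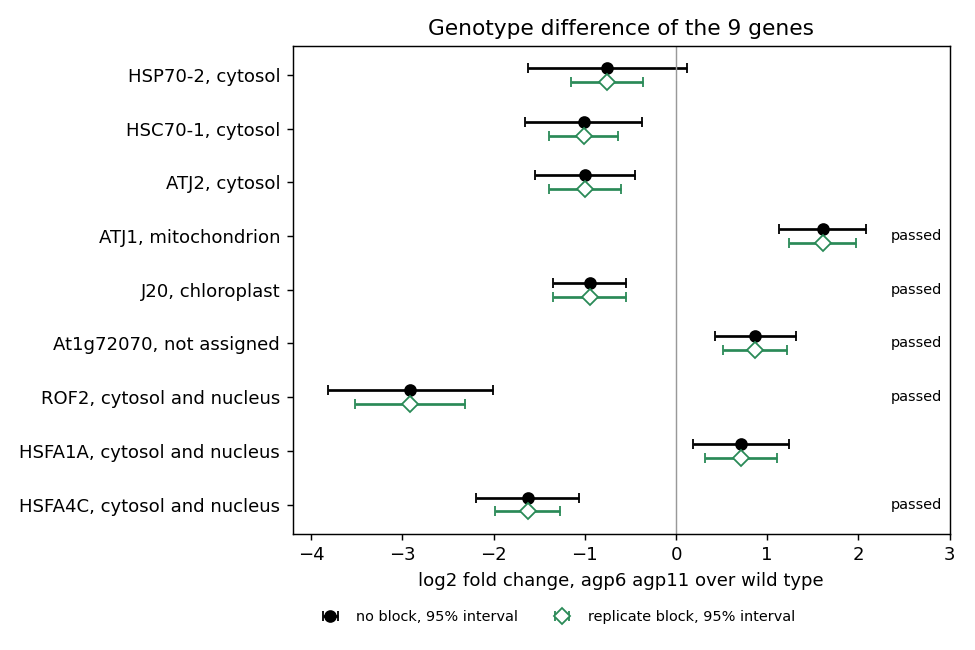
Log2 fold change of agp6 agp11 over wild type (horizontal axis) for the 9 genes with their compartments, with 95% intervals from limma without (filled circles) and with the replicate block (open diamonds). "Passed" marks an adjusted p under 0.05 without the block; the interval of HSP70-2 crosses 0 without the block and lies below 0 with it.

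ROF2 differed more than any other of the 9 genes. It encodes the heat-induced FKBP65, an immunophilin known to modulate the heat response together with its paralogue ROF1. Its signals were 97.3, 319.5 and 208 in agp6 agp11, against 1418, 1611 and 1209 in wild type. The brightest agp6 agp11 array was more than 3-fold below the dimmest wild type array. The fall was 7.53-fold, or -2.91 on the log2 scale with a standard error of 0.40 (limma adjusted p = 0.00343). The agp6 agp11 arrays themselves spread over 3.28-fold, and the wild type arrays over 1.33-fold. Replicate 1 was the dimmest agp6 agp11 array, and without it the log2 difference was -2.44 (limma adjusted p = 0.0113).

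ROF1 (AT3G25230), the paralogue of ROF2, had signals of 177, 235 and 194 in agp6 agp11 and of 399, 392 and 289 in wild type. The genotypes did not overlap, but the 1.78-fold difference did not pass without the replicate block (limma adjusted p = 0.140, and 0.0179 with the block). TWD1 (AT3G21640), an FKBP known to interact with auxin transporters, had signals of 98.6, 66.0 and 63.6 in agp6 agp11 and of 43.4, 44.1 and 48.7 in wild type. It did not pass in either fit (limma adjusted p = 0.1504, and 0.0511 with the block). Whether ROF2 and ROF1 differ in their change was not tested.

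The 2 heat shock factors went opposite ways. HSFA4C, also named ROOT HANDEDNESS 1 or RHA1, had signals of 76.5, 74.4 and 56.5 in agp6 agp11, against 243, 237 and 164 in wild type. The arrays did not overlap, and replicate 3 was the dimmest in both genotypes. The fall was 3.09-fold, or -1.63 on the log2 scale with a standard error of 0.25 (limma adjusted p = 0.00636). Within the 3 replicate numbers the log2 ratios were -1.67, -1.67 and -1.54, a narrow range. Leaving out wild type replicate 1 ended the call (adjusted p = 0.0528).

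HSFA1A, one of the class A1 factors that start the heat response, had signals of 119, 79.2 and 98.8 in agp6 agp11 and of 58.1, 51.4 and 70.6 in wild type. The genotypes did not overlap, and the 1.64-fold difference passed with the replicate block (limma adjusted p = 0.177 without and 0.0349 with it, and 0.0269 with array weights and no block). Of 21 listed heat shock factors the only other one named was HSFB2B (AT4G11660), of the class B that lacks an activation domain. Its signals of 29.3, 34.6 and 32.9 in agp6 agp11 and of 21.8, 26.7 and 22.2 in wild type lay below 40 throughout, and it did not pass (limma adjusted p = 0.241). No other class A1 or A4 factor was named.

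**Figure D3:**
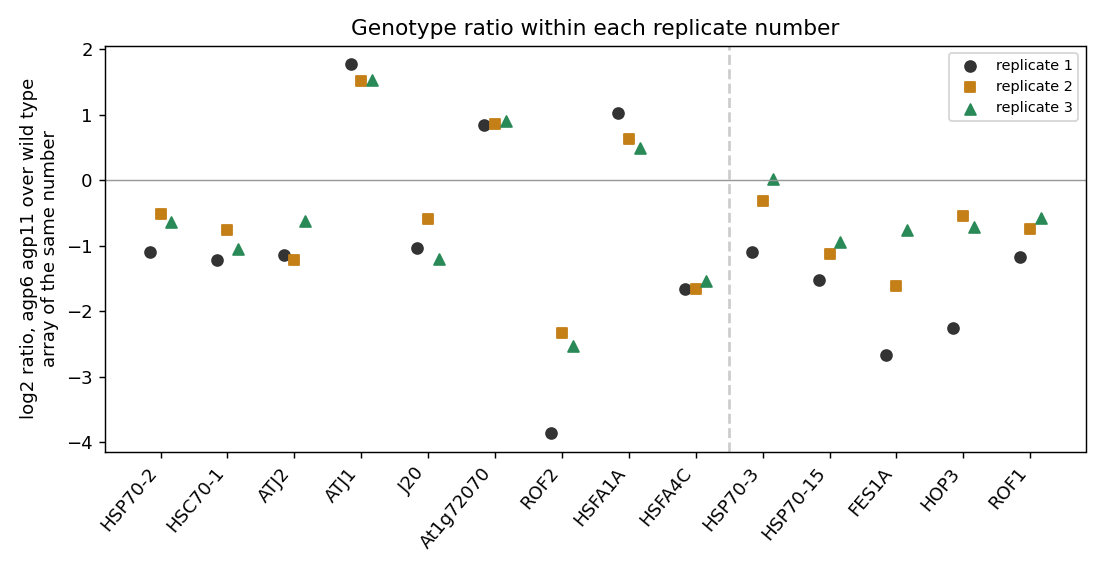
Log2 ratio of agp6 agp11 to the wild type array of the same replicate number (vertical axis) for the 9 genes and, right of the dashed line, 5 related genes. All 3 ratios of each of the 9 genes have the same sign, and for ROF2 the ratio of replicate 1 (-3.86) is the farthest from 0.

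The spread between the agp6 agp11 arrays was shared by several of these genes. Of the 6 genes with lower mean signals, 4 were dimmest on the agp6 agp11 array of replicate 1 (HSP70-2, HSC70-1, ROF2 and J20). J20 lay below 40 on every array, at 13.7 there and 13.9 on agp6 agp11 replicate 3. Of the other listed chaperone genes described below, 28 were detected (above 40 on at least 2 arrays of a genotype). Of these 28, 20 were dimmest on agp6 agp11 replicate 1, so the pattern was not particular to the 9 genes. That array also had the highest summed signal of the sperm cell genes, 22161, against 16027 and 20345 on the agp6 agp11 arrays of replicates 2 and 3, and their part in the spread was not tested. Replicate 2 was the brightest agp6 agp11 array for 6 of the 9 genes and the brightest wild type array for 5. Among the 28 others it was the brightest for 16 in agp6 agp11 and 17 in wild type. In all 9 genes the 3 ratios within replicate numbers had one sign. For every gene except HSP70-2 this follows from the lack of overlap between the genotypes and adds nothing to it. Its share over all probe sets was not counted, so it is no support for HSP70-2 either. In 5 of the 9 the ratio of replicate 1 was the farthest from 0.

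The other genes of the chaperone network were taken from lists of HSP70s, HSP110s, J proteins, heat shock factors, exchange factors and adaptors, immunophilins, HSP90 and HSP100, chaperonins, small heat shock proteins and other heat response genes. Besides the 9 genes they hold 130 loci, of which 45 were named: 5 fell, 1 rose and 39 did not pass, and with the replicate block 12 fell and 3 rose. Over all probe sets 3.68% passed, and 8.34% with the block. Leaving out 1 array, 9 of the 45 passed if it was agp6 agp11 replicate 3, 1 if it was wild type replicate 1, and 2 if it was replicate 1 of agp6 agp11 or replicate 2 of wild type. In these runs 871, 372, 403 and 538 of all 22746 probe sets passed, in the same order. The median log2 difference of the 45 was -0.15. The calls lay in the table that had been picked by genotype difference. Of its 17 genes 6 passed (41.4% of all probe sets in the table did), and the median of the 17 was -0.92. None of the 28 genes named by the platform table alone passed in limma (3 had an unadjusted p under 0.05, as had 13.8% of all probe sets, and 1 passed with the replicate block), with a median of -0.04. Of all probe sets named by the platform table alone 0.0487% passed, and 1.78% with the block.

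**Figure D4:**
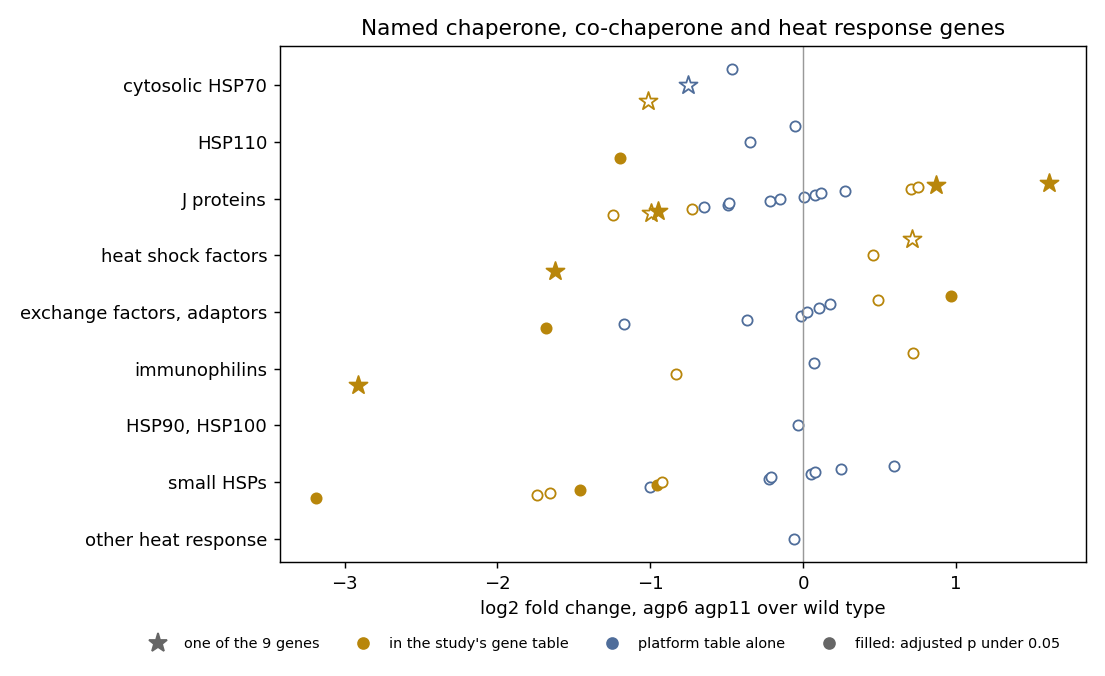
Log2 fold change of agp6 agp11 over wild type (horizontal axis) for the named genes of each list (rows). Stars are the 9 genes, gold marks genes in the study's table picked by genotype difference and blue those named by the platform table alone. Filled symbols have a limma adjusted p under 0.05, and no blue symbol is filled.

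Among the partners of HSP70, FES1A (AT3G09350), a nucleotide exchange factor of the cytosol, had signals of 196, 349.7 and 546 in agp6 agp11 and of 1245, 1073 and 928 in wild type. The arrays did not overlap, and it fell 3.21-fold (limma adjusted p = 0.0361). The call was kept without agp6 agp11 replicate 3 and lost without any 1 of the other 5 arrays (adjusted p = 0.0537 to 0.181). HSP70-15 (AT1G79920), of the HSP110 class of exchange factors, had signals of 59.6, 87.6 and 86.9 in agp6 agp11 and of 172, 191 and 167 in wild type. It fell 2.29-fold (limma adjusted p = 0.0229), a call lost without agp6 agp11 replicate 1 or wild type replicate 1 or 2 (adjusted p = 0.108, 0.121 and 0.0863), and its type of probe set (_s_at) may match several genes. The other 2 named HSP110 genes did not pass.

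HOP3 (AT4G12400), the heat-induced adaptor between HSP70 and HSP90, had signals of 45.3, 173 and 118 in agp6 agp11 and of 216, 254 and 194 in wild type. It was the gene named by the platform table alone that passed with the replicate block (limma adjusted p = 0.242 without and 0.0389 with it). BAG7 (AT5G62390), a co-chaperone of the endoplasmic reticulum, passed as higher (limma adjusted p = 0.00970), with signals of 29.3, 33.3 and 37.7 in agp6 agp11 and of 16.4, 17.9 and 16.7 in wild type, all below 40. Leaving out wild type replicate 1 ended this call too (adjusted p = 0.0723). Of the 9 named exchange factors and adaptors 1 rose (BAG7) and 1 fell (FES1A), against 3.68% of all probe sets called. Both are in the table picked by genotype difference, of whose probe sets 41.4% passed.

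Of 31 listed J proteins 17 were named, and of these 2 rose and 1 fell, all among the 9 genes. The shares over all probe sets were 3.68%, and 8.34% with the block. In the fit with the block there were 4 higher and 4 lower calls, and 2 in each direction were not among the 9 genes. These 4 are in the table picked by genotype difference and are named here after their values were seen. AT3G08910 had signals of 227, 147 and 170 in agp6 agp11 and of 126, 88.7 and 118 in wild type (limma adjusted p = 0.243, and 0.0271 with the block). AT1G59725 had signals of 22.2, 22.9 and 16.4 in agp6 agp11 and of 12.3, 13.9 and 10.2 in wild type, all below 40 (limma adjusted p = 0.0785, and 0.0266 with the block). Both had higher mean signals in agp6 agp11. The other two had lower ones. AT1G71000, a J protein of unassigned compartment, had signals of 23.54, 49.4 and 64.1 in agp6 agp11 and of 97.6, 92.1 and 110 in wild type (limma adjusted p = 0.0923, and 0.0122 with the block). ARG1 (AT1G68370), a J protein known for root gravitropism, had signals of 48.8, 47.5 and 39.5 in agp6 agp11 and of 76.5, 72.2 and 75.0 in wild type (limma adjusted p = 0.0796, and 0.0244 with the block). ATJ3, the paralogue of ATJ2, was not named. Of the 13 named small heat shock protein genes, which hold unfolded proteins without ATP, 3 fell and none rose (6 fell with the block). These 3 were AT2G29500, HSP17.4 (AT3G46230) and AT2G03020. All signals of AT2G03020 lay below 40 (14.2 to 36.5), and its type of probe set (_s_at) may match several genes. The call of HSP17.4 was lost without any 1 array except agp6 agp11 replicate 3 (limma adjusted p = 0.0549 to 0.168). That of AT2G29500 was kept whichever array was left out. All 6 genes that fell with the block are in the table picked by genotype difference, of whose probe sets 41.4% passed and 76.3% with the block. None of the 7 small heat shock protein genes named by the platform table alone passed in either limma fit (1 had an unadjusted p under 0.05 without the block).

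The pattern of ROF2 over the 6 arrays was closest to that of the small heat shock gene AT2G29500 (HSP17.6B-CI), with a Pearson's r of 0.9995 between log2 signals, among 5083 named genes with a mean log2 signal of at least 5. AT2G29500 had signals of 97.9, 359.5 and 247 in agp6 agp11 and of 1918, 2234 and 1519 in wild type. Next came HSP70-15 (r = 0.993), AT5G25450 (0.990), AT1G14020 (0.989) and DIP2 (AT5G03210; 0.986). Of the 9 genes HSC70-1 stood nearest, at rank 19 (r = 0.966), followed by HSFA4C at rank 153 (0.909), ATJ2 at rank 190 (0.893) and HSP70-2 at rank 421 (0.787). The 6 arrays form 2 genotypes and share replicate effects, so these coefficients describe the arrays and carry no test.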

How the data were processed

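Pollen tube RNA of 6 preparations (3 per genotype) was measured on Affymetrix ATH1 arrays. The authors normalized the 6 arrays in dChip against an invariant set of probes and deposited its model-based intensities, linear and fitted to the perfect match probes alone, so probe-level errors and background were not examined again. The number of arrays limits the precision.

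Probe sets were named through a platform table (1 gene for 13513, several for 503), by Entrez ID to RefSeq loci, and through 1995 rows of the study's supplementary gene table, whose name was kept in 26 conflicts. The brightest probe set stood for a locus. No genome build is given in the sources used here, so no coordinates are printed, and probe and promoter sequences were not used here.

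Signals were raised to at least 1, taken as log2 values and tested with limma 3.58.1 run in R 4.3.3 (lmFit, eBayes with trend, prior degrees of freedom 5.54), after a test on simulated data. p-values are adjusted over 22746 probe sets. The criterion of the study asks that the 90% lower bound of a fold change exceed 1.3, and Fieller's method stood in for it (z = 1.645) from the spread between arrays. Where a genotype exceeds a signal of 40 on fewer than 2 arrays, its arrays at or below 40 are set to 40 and the fold is written "at least". Deviations of arrays from their genotype mean correlated at 0.239, 0.347 and 0.379 between arrays with the same replicate number in the titles. Between others they correlated at 0.0711 or less. Deviations cancel out within a genotype, so these lower values are not a separate observation. The numbers were taken as pairs because the 3 same-number values exceeded a limit of 0.1. The alternatives were quantile normalization, median centring, an offset of 32, a minimum mean log2 signal of 5, eBayes without trend, array weights, the replicate block, the lower bound and leaving out each array. No locus had a second named probe set to try. Named genes are the 9, AGP6 and AGP11, up to 4 of each list by p-value, paralogues of the 9, and the 5 genes most like ROF2. The genes and lists were chosen with earlier results of these data known. Python 3.11.15 with pandas 2.3.3 was used for other steps.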

Additional observations from a re-analysis of the deposited data

How the results depend on the processing

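No log2 difference of the 9 genes changed sign under any alternative run. Of 125 comparisons of a gene with its reported value, 100 kept their side of the threshold, 13 lost the call (11 of them when an array was left out) and 12 gained it. Of the 9 genes 5 passed as reported, 9 with the replicate block and 8 with array weights, and 2 to 4 when an array was left out, with the lowest count, 2, without wild type replicate 1. ROF2 and ATJ1 passed in every setting, and the calls of J20, AT1G72070 and HSFA4C were lost in some: J20 without agp6 agp11 replicate 1 or any wild type array (adjusted p = 0.0535 to 0.103), and AT1G72070 also after quantile normalization (0.0720) and median centring (0.0512). ATJ2 passed after quantile normalization (adjusted p = 0.0329), so that 1 of the 9 genes then rose and 4 fell.

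Of the 45 other chaperone genes 6 passed as reported, 15 with the replicate block, 17 with array weights, 13 by the lower bound and 1 to 9 when an array was left out. Of all probe sets, 837 passed as reported, 1897 with the replicate block, 2019 with array weights, 1469 by the lower bound and 372 to 871 when an array was left out (372 without wild type replicate 1, 403 without agp6 agp11 replicate 1, 538 without wild type replicate 2). The lower bound exceeded 1.3 for 7 of the 9 genes, all except HSFA1A (1.28) and HSP70-2, whose bound was under 1. The causes were not tested. J20 could not be tested with the minimum mean signal. Signals near 40 limit ATJ1 in wild type and J20 in both genotypes.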
